A study of Mus musculus with 12 samples.

Results

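A pool of retinas from PBS-injected mouse eyes, read in Cy3 on the 4 arrays of slide 1, was compared with the 4 pools of particle-injected retinas read in Cy5 on those arrays. These 4 arrays, titled replicate 1, are 4 of the 12 in the series, and their Cy3 channel holds 1 of its 3 PBS pools. The pool was chosen by measured values of this same contrast, since earlier results of these data had shown inflammatory genes, among them the markers S100a8, S100a9, Il1b and Ms4a7, high in its Cy3 signal. The differences on slide 1 are therefore given as measured values with no test, and the 4 Cy3 readings count as 1 sample.

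Male C57BL/6 mice aged 5 weeks had the vitreous of the right eye injected with phosphate-buffered saline (PBS) or with nanoparticles, made of gold or of silicate and 20 or 100 nm wide. The retinas were taken 7 days later. Each of the 5 groups had 12 mice, whose retinas were pooled 4 to a tube, so 1 array compares a tube of 4 particle retinas with a tube of 4 PBS retinas. The annotation writes the sizes in nM where the protocol text has diameters in nm, and the PBS channel of the silicate arrays carries strain names from C57BL/7 to C57BL/12. Every eye had received an intraocular injection, so PBS is an injected control, and uninjected eyes are not analysed here. Which PBS tube was used on which array is not stated in the labels.

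PBS was labelled with Cy3 and the particle tube with Cy5 on all 12 arrays, so dye and treatment cannot be told apart in a ratio, and place on the slide and particle group cannot either. Between 67.6% and 74.3% of probes were well above background in a channel of an array, no spot was saturated, and the number of arrays limits the precision. The 4 Cy3 readings of slide 1 had a median SD of 0.0527 log2 units per gene, against 0.116 for the 4 Cy5 pools on the same arrays. Across 22284 genes, which are not independent, the slide 1 ratios correlated with those of slide 2 at -0.12 to 0.17, with the gold arrays of slide 3 at 0.14 to 0.28 and with the silicate arrays of slide 3 at -0.75 to -0.56. The labels give the same dye for PBS on all arrays, so the direction on slide 1 was kept as labelled.

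Inflammation in the retina is carried by resident microglia, by glia that react to injury and by leukocytes that enter from the blood. Neutrophils arrive first after an injury or infection and carry the calcium-binding proteins S100a8 and S100a9 in their cytoplasm, monocytes follow and become macrophages, and both respond to interleukin-1 and to chemokines made in the tissue. The retina itself consists mostly of rod photoreceptors and lies between the pigment epithelium and the vitreous, so a dissected retina can carry traces of pigment epithelium, lens and ciliary body.

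The PBS pool of slide 1 carried far more inflammatory transcripts than any particle pool on its slide. A gene was counted as higher when PBS exceeded the particle pool at least 2-fold on all 4 arrays, which held for 1123 of 22284 genes (5.04%), and 926 of them had a gene symbol. The reverse held for 76 genes (0.341%), of which 46 had a symbol. Of the 1123 genes, 384 were at least 4-fold and 41 at least 16-fold higher on every array. Neutrophil, macrophage, Fc receptor and chemokine genes led the higher set, and melanosome, pigment epithelium and secreted ciliary body genes led the lower set. By the same rule the PBS pool of slide 2 was above all 4 of its particle pools for 1 gene (0.00449%) and below for 47 (0.211%). On slide 3 PBS was above both gold pools for 106 genes (0.476%) and below both for 48 (0.215%). With the array of gold 20 nm left out, the lower set grew to 134 genes, while the higher set lay between 1133 and 1318 genes with any 1 of the 4 arrays left out.

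Ratios below are log2 values of PBS over particle, listed for the gold pools of 20 and 100 nm and then for the silicate pools of 20 and 100 nm. Levels are normalized log2 intensities of a single channel. At the limit, Foxa2 with ratios of 1.01, 1.00, 1.08 and 1.09 and Id2 with 1.88, 1.37, 1.00 and 1.48 lay just inside the higher set, and Foxa2 had a bound of at least 1.74-fold since Cy5 was not well above background. Slc43a2 with 1.00, 1.31, 1.04 and 1.07 and Tcim with 1.92, 1.30, 1.00 and 1.57 lay just outside, so the ratios ran on across the limit. On the lower side, Olfr173 with -1.08, -1.24, -1.21 and -1.01 and Kcnj13 with -1.02, -2.52, -1.54 and -1.28 lay just inside. The nearest genes outside were Olfr485, with -1.24, -1.01 and -1.44 after a first ratio just short of the limit, and Srp54c, with -1.26, -1.08, -0.97 and -1.01.

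The median level of the 1123 genes in Cy3 was 10.7 on slide 1, 7.64 to 7.67 on the arrays of slide 2 and 7.85 to 8.05 on those of slide 3. In Cy5 of slide 1 the median was 8.12, 8.06, 8.58 and 8.23, close to the levels of 7.82 to 8.03 in the Cy5 pools of slide 2. The signal of these genes was high in the PBS channel of slide 1, and the 4 particle pools beside it lay near the pools of another slide. The median ratio of the set was 1.74 against silicate 20 nm, whose own level was the highest of the 4, and 1.98 to 2.19 against the other pools. In bulk RNA, more cells of a type and more RNA per cell cannot be told apart, and this holds for every group of genes below.

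The 4 marker genes of the pool were all far above the particle pools. S100a8 had a level of 15.69 in the PBS pool of slide 1, against 7.51, 7.74, 8.80 and 7.61 in the particle pools and 6.47 and 6.71 in the PBS pools of slides 2 and 3. Its ratios were 8.29, 7.92, 6.82 and 8.07, a mean of 7.77 ± 0.66 (SD over 4 particle pools) or 219-fold. S100a9, which pairs with S100a8 as calprotectin, had a level of 16.93, against 7.53 and 9.16 in the other PBS pools, and ratios of 6.17, 5.88, 5.56 and 6.04. Both genes are markers by which the pool was chosen.

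Il1b, the secreted cytokine interleukin-1 beta, had a level of 14.02 against 6.19 and 6.66 in the other PBS pools, with ratios of 5.81, 5.62, 5.35 and 5.60. Ms4a7, a membrane protein of macrophages, had a level of 13.34 against 7.11 and 8.03, with ratios of 4.80, 4.85, 2.73 and 3.43. The marker of macrophages varied more among the particle pools, with an SD of 1.05, than the neutrophil and cytokine markers did, and the lower ratios were those against silicate. In Cy5, Ms4a7 reached 10.56 and 9.88 in the silicate pools of slide 1 and 8.62 and 8.50 in the gold pools.

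The other genes with the highest ratios on all 4 arrays were mostly products of activated neutrophils and monocytes. Clec4d, a C-type lectin receptor of myeloid cells, had a level of 15.20, against 6.33 and 6.82 in the other PBS pools, and ratios of 7.61, 7.24, 5.95 and 7.32. Wfdc21, a whey acidic protein family member, had ratios of 6.43, 6.05, 6.11 and 6.27, and Fpr2, a receptor for formylated peptides, 6.06, 5.66, 5.82 and 5.77. Of the stefin A family of protease inhibitors, Stfa2l1 had ratios of 5.58, 5.62, 5.31 and 5.64 and Cstdc4 a mean of 5.58, and probes may not separate the close copies of this family. F13a1, the A chain of coagulation factor XIII, had a mean of 5.82 with the probe used here and of 1.38 with its other probe, so the size of its difference is uncertain.

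Secreted acute-phase proteins had large leads over the other PBS pools. The level of Saa3, a serum amyloid A protein, was 17.50 in the PBS pool of slide 1 against 6.18 and 8.74 on slides 2 and 3. Slpi, an inhibitor of neutrophil elastase, had 16.50 against 6.40 and 7.47, and Saa1 had 16.23 against 8.64 and 9.23. By lead over the nearer of the other PBS pools, Slpi, S100a8, Saa3, Clec4d, S100a9 and Wfdc21 came first of all genes with a symbol. Members of the serum amyloid family are close copies, and probes may not separate them.

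For some of these genes both channels of an array were high where one of them was. On slide 1 Saa3 had 12.60, 13.19, 13.19 and 13.14 in Cy5, against 6.38 to 7.91 in Cy5 on slide 2. The PBS readings of Saa3 on slide 3 were 6.02 and 6.35 on the gold arrays and 10.81 and 11.78 on the silicate arrays, where Cy5 read 15.87 and 16.96. Lcn2, the siderophore binder lipocalin 2, showed the same, with 15.15, 15.17, 15.55 and 15.25 in Cy5 of slide 1 and PBS readings on slide 3 of 9.86, 9.93, 14.56 and 13.60. Its ratios on slide 1 were 2.41, 2.32, 1.92 and 2.23, while its PBS level of 17.50 stood against 9.97 and 11.99 in the other PBS pools. Of the 1123 genes, 65 had an SD above 0.5 over the 4 PBS readings of slide 3, 5 on slide 2 and 0 on slide 1. The share of all genes above 0.5 is not given here. The median SD of the 1123 genes was 0.0485, 0.0575 and 0.0904 on slides 1, 2 and 3. Over all genes it was 0.0527, 0.0478 and 0.0790, so PBS readings of slide 3 were more spread in general. The part of signal passing between channels in these values was not tested. With the PBS level of slide 3 taken from its gold arrays alone, a choice made after the values were seen, 1480 genes lay 2-fold above both other PBS pools, against 1495 (6.71% of genes) with all arrays.

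Against the same dye, the PBS pool of slide 1 was at least 2-fold above both other PBS pools for 1495 genes and below both for 61 (0.274%). This comparison and the one with the particle pools share the PBS pool of slide 1, and their counts are not independent. Leaving out the PBS pool of slide 2 raised the 61 to 170 genes, and leaving out that of slide 3 raised it to 92.

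**Figure D1:**
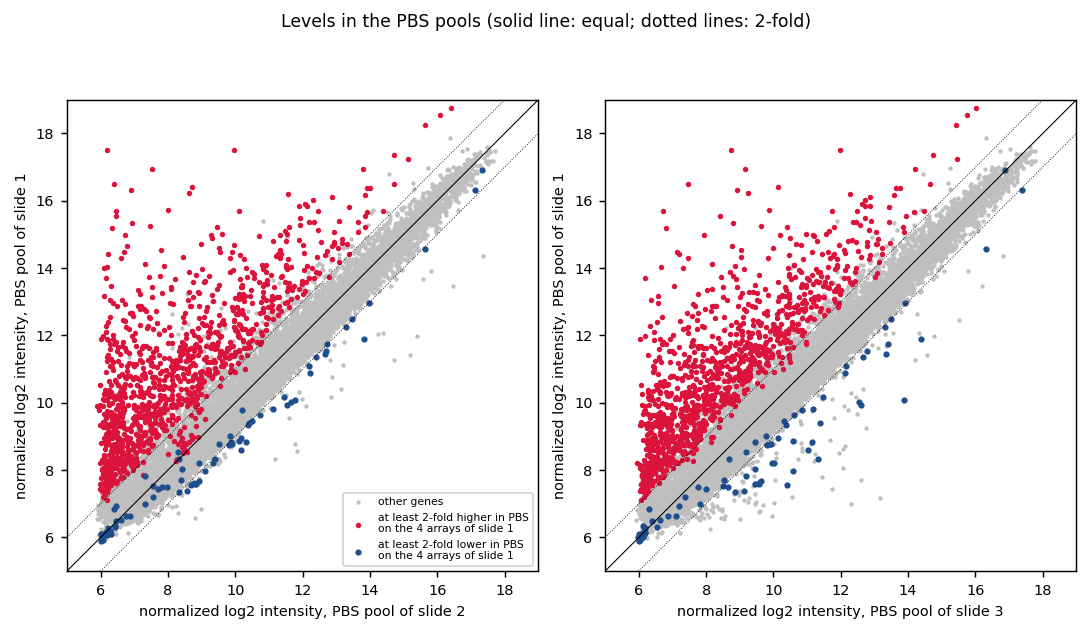
Normalized log2 intensity of each gene in the PBS pool of slide 1 (vertical) against the PBS pool of slide 2 (left) and slide 3 (right), with lines of equality and of 2-fold difference. Red points are the 1123 genes higher and blue points the 76 genes lower in PBS than in all 4 particle pools of slide 1, and most red points lie above the upper 2-fold line in both panels.

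Most granulocyte genes were higher in the PBS pool of slide 1. Of 20 listed neutrophil genes 18 were measured, and 14 of these were higher in the PBS pool, with a median log2 ratio of 3.20 against 0.01 over all genes. Retnlg, a resistin-like protein of neutrophils, had a mean ratio of 4.19, the collagenase Mmp8 was at least 11.9-fold higher, and the antimicrobial granule proteins Camp and Ltf had means of 3.11 and 2.92. A bound is given for the 88 higher genes whose Cy5 signal was not well above background on any of the 4 arrays, and it rests on normalized single channels. A further 105 were well above background in Cy5 on 1 to 3 arrays, so a ratio printed for them is limited by background on the others. Among the genes named here these are Ltf, C5ar1, Cxcl1 and Slfn3 with 2 arrays each and Cxcl2 and Stfa2l1 with 1. Elane and Mpo, proteases and peroxidase of the primary granules that are transcribed in bone marrow precursors, had means of 0.08 each, and the granulocyte receptors Trem1 and Csf3r 0.02 and -0.53. The levels of Elane were 11.10, 11.12 and 10.84 in the PBS pools of slides 1, 2 and 3, so its probe gave the same signal where S100a8 differed.

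Macrophage genes were as broadly higher, and resident microglial genes much less so. Of 22 measured macrophage genes 17 were higher, with a median of 2.75. Cd14, a receptor for bacterial lipopolysaccharide, had a level of 13.42 against 8.08 and 8.51 and ratios of 5.04, 4.82, 4.69 and 5.03. Adgre1, an adhesion receptor of macrophages, had ratios of 4.79, 5.10, 3.70 and 4.37, and Ccr2, the receptor that brings monocytes out of the blood, was at least 11.5-fold higher. The microglial list had 1 of 10 measured genes in the higher set, Tmem119, with ratios of 1.20, 1.66, 1.05 and 1.53, and a list median of 0.33. P2ry12, a purine receptor of resting microglia, had a mean of -0.16, and Cx3cr1, the fractalkine receptor, had 0.93, 1.79, 0.70 and 1.01. For Itgam and Ms4a4c the probe used gave means of -0.13 and -0.50 while other probes of these genes gave 0.77 to 2.91 and 1.86 to 2.90, so their probes disagree.

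Receptors that couple phagocytes to antibodies were higher almost throughout, and complement genes in part. Of 9 measured Fc receptor and adaptor genes 8 were higher, with a median of 3.28. The inhibitory receptor Fcgr2b had a mean ratio of 4.17, the shared signalling chain Fcer1g 3.99, the immunoglobulin-like receptor Pirb 3.84 and the activating receptor Fcgr3 3.41. Trem2, a lipid receptor of macrophages and microglia, missed the limit on 1 array, with ratios of 2.25, 3.24, 0.96 and 2.43. Of 16 complement genes 8 were higher. C3, the central component, had a level of 14.99 against 9.29 and 10.18, with ratios of 3.87, 4.60, 2.38 and 3.76. Factor B (Cfb) had a mean of 3.41 and the anaphylatoxin receptor C5ar1 3.17, whereas the regulator Cd55 had 0.02.

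Chemokines that attract neutrophils and monocytes were among the genes with the largest ratios. Of 25 measured chemokine and receptor genes 17 were higher, with a median of 2.91. Ccl4, a ligand for monocytes and T cells, had a level of 12.97, against 6.86, 6.66, 7.62 and 6.89 in the particle pools and 6.37 and 6.56 in the other PBS pools. Cxcl2, which attracts neutrophils through Cxcr2, had a level of 11.41 against 6.15, 6.19, 6.66 and 6.20 in the particle pools, where it was well above background on 1 array, with ratios of 5.19, 5.27, 4.72 and 5.25. Cxcl3, its neighbour in function, had a level of 11.90 and was at least 47.2-fold higher, since Cy5 was not well above background on any of the 4 arrays. Ccl6, Ccl3, Cxcl1 and Ccl2 had mean ratios of 4.60, 3.93, 3.52 and 3.31, while Ccl12 and the B cell chemokine Cxcl13 had 0.02 and -0.31.

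Promoter stretches of Cxcl2 and Cxcl3 and of Casp4 are shown because these genes with large differences each hold a match to the kappa-B consensus, the recognition sequence of NF-kappa-B, within 250 bases before the gene start. Sequences are from the RefSeq promoter table of GRCm38.p6, capitals mark the match, and the windows are chr5:90903762-90903851 (plus strand), chr5:90785988-90786077 (plus strand) and chr9:5308716-5308805 (plus strand).
Cxcl2: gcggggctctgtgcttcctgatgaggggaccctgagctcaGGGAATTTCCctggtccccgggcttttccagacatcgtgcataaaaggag
Cxcl3: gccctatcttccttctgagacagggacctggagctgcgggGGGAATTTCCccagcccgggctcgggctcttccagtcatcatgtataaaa
Casp4: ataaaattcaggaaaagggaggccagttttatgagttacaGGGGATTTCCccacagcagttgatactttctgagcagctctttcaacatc

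The consensus was searched on both strands and matches may overlap, as they do in Casp4. It was present in 71 of the 716 higher genes with a promoter in the table (9.92%), in 5.65% of the 12134 tested genes with a promoter and in 3.9% of all 32851 promoters. A match describes the letters in this window and was not tested as a binding site.

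Of 20 measured genes of the interleukin-1 and tumour necrosis factor pathway 11 were higher, with a median of 1.78, and all 20 had ratios above 0 on all 4 arrays, against 36.5% of all genes. Casp4, the caspase that senses intracellular lipopolysaccharide, had a level of 12.66 against 6.88 and 7.43, with ratios of 5.42, 5.65, 4.54 and 5.18. Tnf had a level of 11.37 against 6.19 and 6.59, with ratios of 3.80, 3.56, 3.51 and 3.60. Casp1, which cleaves the interleukin-1 beta precursor, had a mean of 3.21 and Il1rn, the secreted receptor antagonist, 2.95. Nlrp3, an inflammasome sensor, and Il18 had 0.67 and 0.29.

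Toll-like receptor signalling and its feedback genes were in the higher set for 13 of 19 measured genes, with a median of 1.95. Tlr6 and Tlr2, which pair to recognise bacterial lipopeptides, had mean ratios of 4.24 and 3.88. Irak3, an inhibitor of the pathway, had 4.30, and Nfkbia, the inhibitor of NF-kappa-B that is itself a target, had a level of 15.38 against 12.35 and 12.45 and ratios of 2.95, 3.19, 2.93 and 2.98. Tlr9 and the feedback gene Tnfaip3 had means of 0.03 and -0.15.

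Oxidative killing genes were split from general antioxidant genes. Of 19 measured genes of both kinds 10 were higher, led by the phagocyte oxidase subunits Ncf4, Ncf1, Cyba and Cybb with mean ratios of 4.20, 3.69, 3.27 and 3.27. Nos2, the inducible nitric oxide synthase, had ratios of 2.96, 2.87, 2.93 and 2.90, with an SD of 0.04. Sod1 and Gclc, antioxidant genes of most cells, had means of 0.00 and -0.04. Leukocyte adhesion genes were higher for 6 of 10, among them the integrin chain Itgb2 with a mean ratio of 3.24. Of 16 phagocyte lysosome genes 8 were higher, led by the cathepsins Ctsh and Ctsz with 2.32 and 2.05.

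Antigen presentation genes were nearly all in the higher set. Of 9 measured MHC class II genes 8 were higher (median 2.01), with the invariant chain Cd74 at 2.68 and H2-Aa at 2.42. Of 12 class I genes 10 were higher (median 2.11). B2m, the class I light chain, had a level of 15.84 against 11.91 and 12.72 and ratios of 2.87, 3.15, 2.15 and 2.37. Nlrc5, a transactivator of class I genes, had a mean of 3.27 with the probe used and 0.23 with its other probe.

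Of 18 measured interferon-response genes 11 were higher, with a median of 1.53, and all 18 were above 0 on all 4 arrays. Oas1a, a sensor of double-stranded RNA, had a level of 13.26 against 7.81 and 9.51, with ratios of 3.56, 4.76, 3.10 and 3.70. The antiviral proteins Bst2 and Rsad2 had means of 2.84 and 2.81, and Ifit2, another interferon-induced gene, had 0.55. Interferon-induced GTPases were higher for 6 of 11, with Ifi47 at 2.33, Igtp at 2.15, Irgm1 at 2.12 and Gbp5 at 2.04. The list medians were highest against gold 100 nm, at 2.36 for the interferon response and 2.19 for the GTPases.

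Promoters of Oas1a and Rsad2 are shown as examples of the interferon element core GAAANNGAA, which 9 of the 15 interferon-response genes with a promoter in the table hold. The stretches lie at chr5:120907526-120907585 (minus strand) and chr12:26456523-26456611 (minus strand) of GRCm38.p6, with the match in capitals. The Rsad2 match is on the opposite strand.
Oas1a: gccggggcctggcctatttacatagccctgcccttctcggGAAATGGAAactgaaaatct
Rsad2: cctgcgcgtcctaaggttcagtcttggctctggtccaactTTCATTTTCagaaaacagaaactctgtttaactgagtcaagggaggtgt

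The core was searched on both strands, and the Oas1a match overlaps a further one. It was present in 101 of 716 higher genes (14.1%), in 7.67% of tested genes and in 7.13% of all promoters.

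Genes of reacting glia and of matrix repair were higher in part. Of 19 reactive gliosis genes 10 were higher, with a median of 1.78. Cebpd, a transcription factor of the acute-phase response, had a level of 15.89 against 12.08 and 12.64 and ratios of 2.47, 4.55, 2.31 and 1.78. Bcl3 had a mean of 3.09 and Timp1, an inhibitor of matrix proteases, had a level of 15.72 and ratios of 3.08, 3.02, 2.63 and 2.92. Gfap, the intermediate filament of reactive Muller glia and astrocytes, had ratios of 1.27, 2.94, -0.10 and 1.08 and was not in the higher set. Matrix genes were higher for 5 of 17, among them fibronectin (Fn1, mean 3.56).

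Few lymphocyte, endothelial and cell cycle genes reached the 2-fold limit, though many had ratios above 0. Above 0 on all 4 arrays were 8 of 11 T and NK cell genes and 15 of 18 proliferation genes, against 36.5% of all genes, and the list medians were 0.51 and 0.57. They were 1.56 and 0.95 with the processed signals. Of the T and NK cell genes 1 was in the higher set, the NK receptor Klrd1 at a bound of at least 3.3-fold, while Cd3e and Nkg7 had means of -0.05 and -0.01. Of 2 B cell genes, Cd79b had 1.74 and Jchain 0.02. Proliferation genes had 1 of 18 in the higher set (Mcm3, mean 1.28) and endothelial and pericyte genes 2 of 16 (Cdh5, 2.02, and Vwf, 1.89). Of 12 reference genes 1 was higher, Gusb with 2.07, a lysosomal enzyme used as a reference gene elsewhere, and the list median was -0.03, which was above 0 with the processed signals and with the deposited value table.

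**Figure D2:**
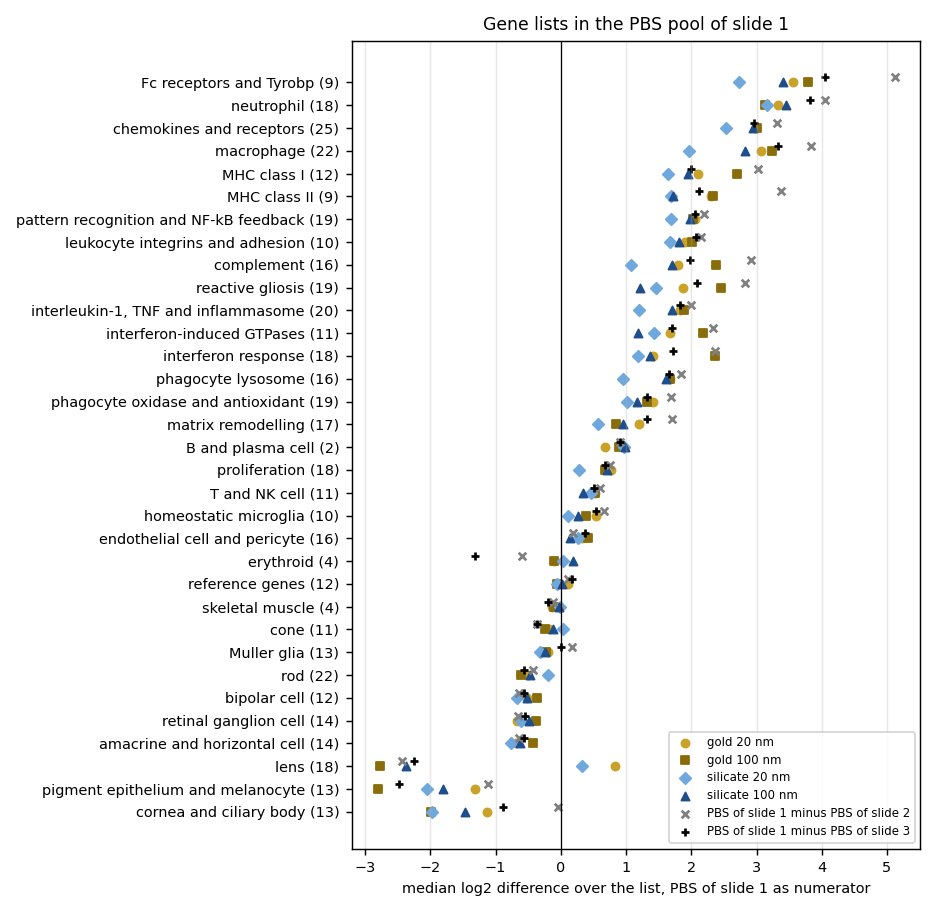
Median log2 difference of each gene list on slide 1, PBS over each of the 4 particle pools (coloured symbols), and the median difference of the PBS pool of slide 1 from the PBS pools of slides 2 and 3 (grey and black crosses), with the number of measured genes in brackets. Leukocyte lists lie at the top and right, neuronal lists just left of 0, and the pigment, lens and ciliary body lists at the lower left, where symbols of 1 list are spread widest.

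Genes of retinal neurons were slightly lower in the PBS pool of slide 1, and none reached the 2-fold limit. The median of 22 rod genes was -0.44, and 19 of them were below 0 on all 4 arrays, against 31.1% of all genes. Single rod genes ranged from -0.94 (Prph2, a disc rim protein) to -0.11 (Rp1, an axoneme protein). Lists of bipolar, amacrine and horizontal, and ganglion cells had medians of -0.53, -0.68 and -0.56, and those of cones and Muller glia -0.14 and -0.25. The size of these medians depended on the scaling: the rod median was -0.20 with the processed signals and -0.67 with median centring, and that of Muller glia -0.13 and -0.42. A larger share of leukocyte RNA in the tube and fewer neuronal transcripts cannot be told apart in normalized ratios.

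Genes of the pigment epithelium and melanocytes made up the list with most members in the lower set. Of 13 measured genes 8 were in the lower set, with a list median of -1.93, and 9 were at least 2-fold below both other PBS pools. Dct, a melanin synthesis enzyme, had a level of 10.07 in the PBS pool of slide 1, 11.78 and 13.88 in the other PBS pools, and 12.81, 15.60, 14.39 and 13.66 in the particle pools. Its ratios were -2.69, -5.52, -4.37 and -3.59, the lowest against gold 100 nm and the highest against gold 20 nm. Tyrp1, Mlana and Pmel, further melanosome genes, showed the same order of the 4 pools, with means of -3.22, -3.06 and -2.64.

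Genes of the visual cycle and of retinol transport were among the other members of this list. Rpe65, the isomerase of the visual cycle, had a level of 9.92 against 11.55 and 12.59, with ratios of -1.43, -2.81, -2.06 and -1.89. Ttr, a carrier of retinol and thyroid hormone, had a level of 11.89 against 13.81 and 14.38 and ratios of -1.99, -3.05, -3.12 and -2.17. Mitf, the transcription factor of pigment cells, and Tyr, tyrosinase, were not in the lower set, with means of 0.25 and -0.62. The PBS pools themselves were ordered slide 1, slide 2, slide 3 in Dct, Tyrp1, Rpe65 and Ttr, with 1 pool for each slide.

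Lens genes differed by the particle pool and not in a single direction. Their list medians were 0.84, -2.77, 0.32 and -2.38, and 0 of 18 genes were in the lower set, yet 16 of 18 lay at least 2-fold below both other PBS pools. Cryaa, the alpha A crystallin, had a level of 14.35 in the PBS pool of slide 1 against 17.37 and 16.81. In the particle pools it had 13.90 and 14.35 at 20 nm and 18.41 and 18.13 at 100 nm, with no overlap between the sizes on this slide. Cryba1, Cryba2, Crybb2, Crygs and Grifin, further lens proteins, were with Cryaa the 6 genes farthest below both other PBS pools. On slide 2 the lens medians were 2.04, -0.15, 0.15 and -0.14, again above 0 at 20 nm and below 0 at 100 nm, but near 0 in 3 of the 4 pools. On slide 3 they were 1.72, 2.05, -0.91 and -1.81, above 0 for gold and below 0 for silicate at both sizes.

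Secreted genes of the ciliary body and eye coat were a further group of the lower set. Of 13 listed cornea and ciliary body genes 6 were lower, with a median of -1.95, and 0 were 2-fold below both other PBS pools. Optc, an extracellular protein of the vitreous made by the ciliary body, had levels of 7.49, 7.97 and 7.76 in the 3 PBS pools and ratios on slide 1 of -2.97, -3.82, -2.95 and -2.23. Penk, the enkephalin precursor, had -2.24, -3.98, -2.34 and -2.48, and Slc26a4, an anion exchanger, had a mean of -2.39. The list median was also below 0 on slide 2, at -2.04, -1.68, -2.72 and -0.49, and on slide 3 it was -0.21 and -0.09 against gold and -1.26 and -2.003 against silicate.

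**Figure D3:**
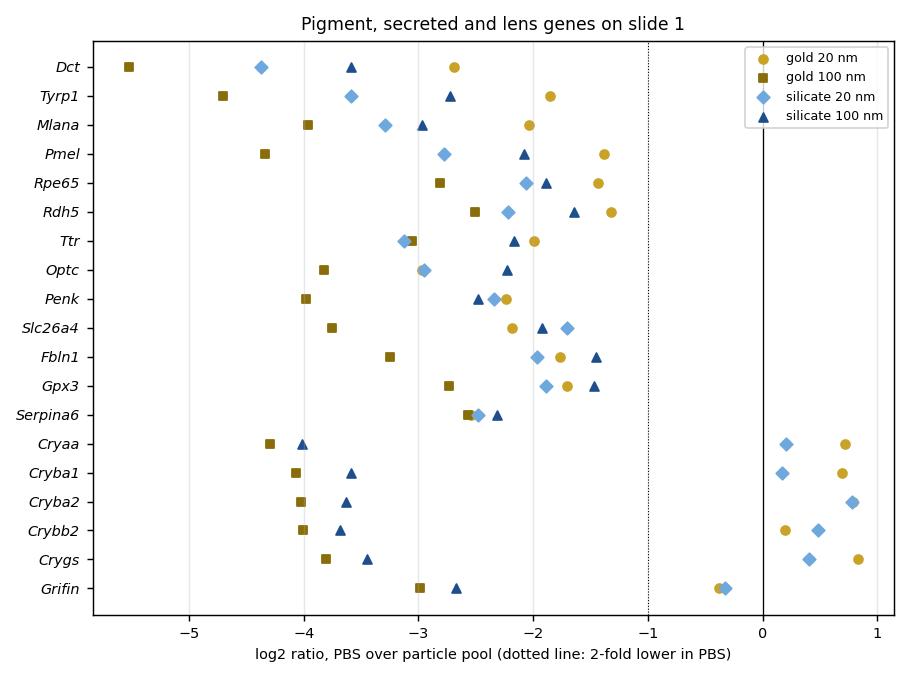
Log2 ratio of PBS over each particle pool of slide 1 for melanosome, pigment epithelium, secreted and lens genes, 1 row per gene and 1 symbol per pool, with a dotted line at 2-fold lower in PBS. Pigment and secreted genes lie left of the dotted line in all 4 pools, and the crystallin genes split, with both 100 nm pools at the left and both 20 nm pools near or above 0.

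The rule for this pool used the arrays of slide 1 alone, and slides 2 and 3 hold the same ratio with other PBS pools. Earlier results of these data were known, and the pool was picked for standing apart. The outcome on slides 2 and 3 is therefore not independent of the choice. On their 8 arrays limma called 1400 genes (6.28%) higher in the particle pools and 1311 (5.88%) higher in PBS, at an adjusted p of 0.05. None of the 1123 genes higher in the PBS pool of slide 1 was called higher in PBS there by limma, 0 with the slide as a random block and 0 with the replicate block, and 3 had an unadjusted p below 0.05 in that direction. In the opposite direction limma called 9 of the 1123 (0.801%), against 6.28% of all genes. It called 4 with the slide as a random block and 9 with the replicate block, and 169 had an unadjusted p below 0.05. The share of all genes below that unadjusted limit is not given here, so the 3 and the 169 have no background to be read against. The 8 arrays hold only 2 PBS pools, and p-values measure the spread between these arrays. Probes were kept by signal on slide 1, so genes of this set could pass through the PBS channel in which they are high. Their median Cy3 level was 7.64 to 7.67 on slide 2 and 7.85 to 8.05 on slide 3, against 10.7 on slide 1. A gene near background in PBS could hardly be called higher in PBS. The 0 and the 0.801% therefore have no background matched for level, and no conclusion is drawn from them.

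These counts rest on which slide and arrays are used. Without slide 2, limma called 71 and 49 genes in all, higher in particles and in PBS, and without slide 3 it called 1682 and 922. Without any 1 array of slide 2 the counts were 795 to 878 and 576 to 699, and without any 1 of slide 3 they were 964 to 1241 and 649 to 1030. Of the 1123 genes, 8 were higher in PBS and 166 higher in particles without slide 3, against 922 and 1682 of all 22284 genes. Without slide 2 it was 0 in each direction, against 49 and 71 of all genes. Without both silicate arrays of slide 3, a choice made after the values were seen, 23 of the 1123 were higher in PBS. Higher in particles were 43 of them, and this fit called 1310 and 1715 of all genes in these 2 directions.

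Of the 9 genes called in the opposite direction, 4 are described here, and all 4 had particle levels above PBS on every array of slides 2 and 3. Glipr1, a secreted protein of macrophages and other cells, had ratios of 2.88, 2.68, 2.02 and 2.82 on slide 1. On slide 2 they were -0.80, -1.25, -1.29 and -1.07 and on slide 3 -0.93, -0.72, -3.13 and -3.89, a mean of -1.63 over both (limma, adjusted p = 0.0261). Slfn3, a Schlafen family member, had a mean of -0.80 there (limma, adjusted p = 0.00164). Txnip, an inhibitor of thioredoxin, had -1.36 (limma, adjusted p = 0.0369) and Casp8 had -1.06 (limma, adjusted p = 0.0325), and with the slide as a random block their adjusted p-values were 0.0652 and 0.0586.

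Part of the lower set was lower in PBS on the other slides as well. Of the 76 genes, limma called 36 (47.4%) higher in the particle pools on slides 2 and 3, against 6.28% of all genes. It called 0 higher in PBS, and 47 and 0 had an unadjusted p below 0.05 in these directions. For the 47 too, the share of all genes below that unadjusted limit is not given. The 36 became 34 with the random block, 18 without slide 2 and 49 without slide 3. In the same fits 910, 71 and 1682 of all 22284 genes were called in this direction. The filter on slide 1 signal applies to this set too, and 17 of its genes passed by Cy5 alone. On slides 2 and 3 Optc had a mean ratio of -2.81 (limma, adjusted p = 0.00444), Fbln1, a fibulin of basement membranes, had -2.70 (limma, adjusted p = 0.00654) and Gpx3, a secreted glutathione peroxidase, -2.45 (limma, adjusted p = 0.00325). Of the 13 pigment epithelium and melanocyte genes limma called 2 there, both higher in the particle pools and neither in the lower set of slide 1: Mitf with a mean of -0.59 (limma, adjusted p = 0.0286) and Oca2, a melanosome transporter, with -0.63 (limma, adjusted p = 0.0473). With the slide as a random block their adjusted p-values were 0.0552 and 0.082. Tyrp1, Mlana and Pmel had means of -1.72, -1.44 and -1.20 and were not called (limma, adjusted p = 0.0509, 0.0815 and 0.118), but they were with the replicate block (limma, adjusted p = 0.0247, 0.029 and 0.0421). Dct had a mean of -1.40 (limma, adjusted p = 0.109, and 0.0509 with the replicate block) and Rpe65 -0.20 (limma, adjusted p = 0.52).

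Some genes of the lower set had nearly the same ratio on all 12 arrays, whichever PBS pool was used. Serpina6, a corticosteroid-binding globulin, had ratios of -2.54, -2.56, -2.48 and -2.31 on slide 1, at least 5.07-fold lower, and -2.61 on slides 2 and 3 (limma, adjusted p = 5.19e-07), where it lacked the value of 1 array. AY074887 had a mean of -2.12 on slide 1 and -2.13 on slides 2 and 3 (limma, adjusted p = 1.51e-07). In Cy3 17 of the 76 genes, Serpina6 and the desmosomal cadherin Dsc3 among them, were not well above background on any of the 4 arrays. With no array of opposite dyes, an effect of the dye and an effect of particles cannot be told apart for these genes.

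The nearest counterpart of the higher set lay in the silicate pools of slide 3. There 1629 genes (7.31%) were at least 2-fold higher in both silicate pools than in PBS, and 855 of them were in the higher set of slide 1, which is 76.1% of that set and 52.5% of the silicate genes. None of the 1123 genes was 2-fold lower in both silicate pools, against 0.332% of all genes. Their PBS levels on slide 3 were low, as given above, so this outcome too has no background matched for level. The median ratio of the 1123 genes was -1.80 and -2.09 on the silicate arrays of slide 3, 0.11 and 0.13 on its gold arrays, and -0.17, -0.10, -0.12 and -0.07 on slide 2.

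Many of the leukocyte lists high in the PBS pool of slide 1 were also high in the silicate pools of slide 3. At least 2-fold higher in both silicate pools were 12 of 18 neutrophil genes, 20 of 22 macrophage genes, 9 of 9 Fc receptor genes, 20 of 25 chemokine genes and 15 of 18 interferon-response genes. Microglial genes were higher in 6 of 10, against 1 of 10 in the PBS pool of slide 1, and lens genes in 8 of 18, against 0. T and NK cell genes were higher in 7 of 11 against 1, matrix genes in 13 of 17 against 5, lysosome genes in 15 of 16 against 8 and proliferation genes in 6 of 18 against 1. Of 13 cornea and ciliary body genes 6 were higher in both silicate pools, while 0 were higher and 6 lower in the PBS pool of slide 1. The difference between these counts was not tested.

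Single genes differed in size between the 2 settings. Ms4a7 reached 14.50 and 15.08 in the silicate pools of slide 3 and 13.34 in the PBS pool of slide 1, and S100a8 12.37 and 14.56 against 15.69. Cxcl2 had ratios of -0.27 and -2.66 on the silicate arrays of slide 3, so the 2 silicate pools were unlike in this gene. Of the 1629 silicate genes, 774 were not in the higher set of slide 1, and 276 of these were within 2-fold of 0 on all 4 of its arrays.

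**Figure D4:**
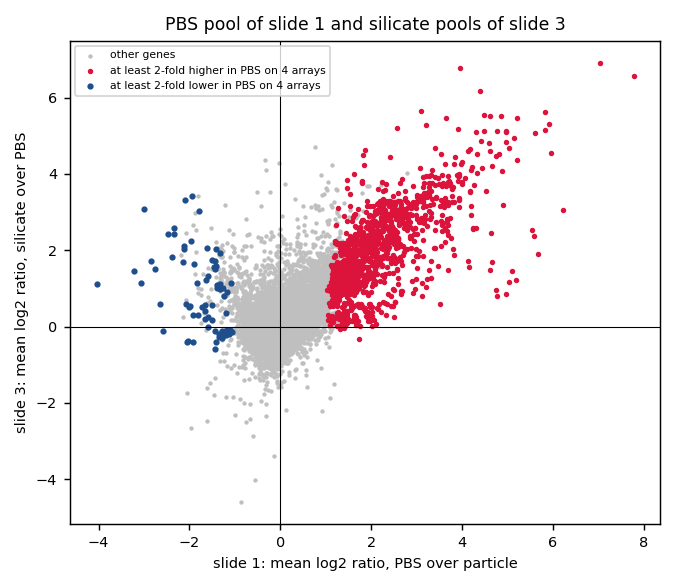
Mean log2 ratio of PBS over particle on slide 1 (horizontal) against the mean log2 ratio of silicate over PBS on slide 3 (vertical) for each gene. The 1123 genes higher in the PBS pool of slide 1 (red) lie mostly in the upper right, and the 76 lower genes (blue) lie on the left, from just below 0 upwards on the vertical axis.

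Of the 3 PBS pools, that of slide 1 had the lowest levels of haemoglobin and other red cell genes. Hba-a1 had levels of 12.63, 13.27 and 14.25 in the PBS pools of slides 1, 2 and 3, and ratios on slide 1 of -0.60, -0.38, -0.14 and 0.01. On slides 2 and 3 all 4 measured erythroid genes were higher in PBS, among them the beta globin Hbb-bt by 1.20 (limma, adjusted p = 0.0139) and the haem synthesis enzyme Alas2 by 1.05 (limma, adjusted p = 0.00924). Hba-a1 was higher there by a mean of 1.1001 over the 8 arrays (limma, adjusted p = 0.033), and with the slide as a random block it was not called (limma, adjusted p = 0.0522), which left 3 of the 4. On slide 1, 0 of the 4 were in either set, and only 4 of the 10 listed red cell genes were measured. The source of the leukocyte transcripts was not tested.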

How the data were processed

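Each array held RNA of a particle tube in Cy5 and of a PBS tube in Cy3, per the labels. The deposited scanner files give each spot as intensity. Per the file headers the software was Feature Extraction version 11.0.1.1 of Agilent (9.3.2.1 in the submitters' processing notes), and the authors pooled 4 retinas per tube, per the labels' protocols. The deposited log10 ratio in these files was used only to read the scale of the deposited value table, whose columns hold log2 ratios of Cy5 over Cy3. Against the log10 ratio its slope was 3.30 to 3.32 and its correlation 0.942 to 0.995 across spots. Column medians of the deposited values, by replicate, were 0.0163, 0.0328 and 0.0449 (gold 20 nm), 0.0560, 0.0478 and 0.0448 (gold 100 nm), 0.0870, 0.0476 and 0.0910 (silicate 20 nm), and 0.0744, 0.0477 and 0.114 (silicate 100 nm). Its centring stays unknown.

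Median signals were background-corrected (normexp, offset 50) and loess-normalized with limma 3.58.1 (R 4.3.3; tables were read through data.table, release 1.17.8), with 1377 control spots at weight 0 and 149 to 257 outlier spots per array left out. Spots were averaged to 39429 probes. A probe was kept when well above background in 1 dye on all 4 arrays of slide 1 (27368 probes). The brightest probe stood for each of 22284 genes, 4269 of which had more than 1 kept probe, and 10 of which lacked a slide 1 value. Symbols came from RefSeq accessions through GRCm38.p6 (6279 of 32334 unmatched), since the arrays were annotated on mm9. Single-channel levels were scaled by Aquantile. For a lower bound on a fold, the dim side was set to the dimmest signal well above background on the array, or to the probe's own signal if higher, and dye bias in it was not tested.

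Slide 1 calls have no test. Slides 2 and 3 were tested with limma (mean ratio against 0, two-sided, Benjamini-Hochberg over all genes, 0.05). This fit was tested on simulated data with independent noise for each array. The simulated arrays shared no PBS pool, so the error rate for arrays that share a pool was not tested. Tubes pooled separate mice per the labels, and p-values measure the spread between 8 arrays that hold 2 PBS pools. Replicate number equals slide in the file headers. Deviations from group means correlated at 0.902 to 0.941, 0.0898 to 0.845 and 0.587 to 0.926 between arrays of slides 1, 2 and 3, so the number pairs the arrays. Members and the 33 gene lists (458 of 501 genes measured) were chosen with earlier results of these data known. A few genes that the naming rule picks are not reported here. Genes were named by rule: the 4 markers, the 12 highest and 12 lowest by smallest ratio, up to 4 called members of each list with the 2 nearest 0, the 2 on each side of the limits, the 6 farthest above and below both other PBS pools, and up to 4 called on slides 2 and 3 in each direction. Further list members were added by their role after values were seen. Alternatives were other background corrections, normalizations, filters, probe rules, limits, blocks and left-out arrays.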

Additional observations from a re-analysis of the deposited data

Results flagged for a closer look

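Over the 4 particle pools of slide 1, 58 lists and genes were examined for a value far from the other 3, a step that chance alone passes about 1 time in 20. For 4 of them a pool stood far off. The chemokine list had a median ratio of 2.53 against silicate 20 nm, below those of the other pools, and the phagocyte lysosome list had 0.960 against the same pool. The ratio of Stfa2l1 was 5.31 against silicate 20 nm, and that of Penk was -3.98 against gold 100 nm.

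For 2 lists the pools of slide 1 fell on opposite sides of 0 by a property of the particle, and neither difference was tested. Lens genes had medians of 0.835 and 0.324 against the 20 nm pools of gold and silicate and of -2.77 and -2.38 against the 100 nm pools. Red cell genes had medians of -0.102 and -0.106 against the gold pools and of 0.0347 and 0.185 against the silicate pools.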

How the results depend on the processing

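Of 330 list medians under the alternatives 297 moved by less than the spread over the 4 particle pools, 31 moved further and 2 changed sign. Those were the reference genes, with 0.247 from processed signals and 0.194 from the deposited value table. Of 1560 values of named genes 1417 moved by less than that spread, 143 moved further and 0 changed sign. The 1123 and 76 genes higher and lower in PBS on slide 1 became 1693 and 204 with processed signals, 384 and 7 at 4-fold, 1579 and 222 with the deposited value table, and 225 lower with the limit set on the mean of 4 arrays. Leaving out 1 array gave 1133 to 1318 and 81 to 134. The 1495 and 61 genes above and below both other PBS pools became 639 and 13 at 4-fold, and with an array position or a PBS pool left out they ranged from 1490 to 1637 and from 53 to 170.

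The limma counts on slides 2 and 3, 1400 higher in particles and 1311 higher in PBS, became 910 and 681 with the slide as a random block, 515 and 251 as the mean of 4 groups, and 1602 and 1473 with the replicate block, which also gave 40 instead of 36 calls in the lower set. Processed signals gave 2837 and median centring 745 higher in PBS. With arrays or a slide left out, the counts ranged from 71 to 1682 and from 49 to 1030. Without both silicate arrays of slide 3 they were 1715 and 1310. The causes of these shifts were not tested, and fits with arrays or a slide left out also hold fewer arrays. Higher genes made up 93.7% of slide 1 calls, and 87.7% to 93.7% under other scalings. The ratios of 88 higher genes are bounded by a Cy5 signal not well above background on any array, and those of 105 in part.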

Other observations

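On slide 1, Gpnmb, Serpina3n, Col3a1 and Col1a1 were at or above the PBS level in the silicate 20 nm pool and below it in the other particle pools. The macrophage list as a whole was not, with a median ratio of 1.97 against silicate 20 nm. The genes in this paragraph were chosen after their values were seen. Gpnmb, a glycoprotein of lipid-laden macrophages, had ratios of PBS over particle of 2.26, 0.76, -1.17 and 1.82. Serpina3n, a protease inhibitor of reactive astrocytes, had 2.32, 2.90, -0.43 and 2.33. The collagen chains Col3a1 and Col1a1 had 2.83, 2.37, -0.08 and 2.67, and 2.00, 1.51, -0.26 and 1.33. The mitotic marker Mki67 had 1.93, 1.51, 0.37 and 1.44, so PBS stayed above silicate 20 nm in this gene.

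A corneal transcript set the PBS pool of slide 3 apart instead. Krt12, a keratin of the corneal epithelium, had a level of 13.16 there, against 7.17 and 7.25 in the PBS pools of slides 1 and 2.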
